A study of Mus musculus with 8 samples.

Results

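Keratin-associated protein genes were taken as every row of both deposited tables whose gene name begins with Krtap. There were 52 such genes of 29647 named genes in the table of untreated mice and 41 of 29246 in the table of mice given 5-aza. Together these are 53 of the 32693 genes listed in either table; 40 were in both, 12 in the untreated table alone and 1, Krtap9-5, in the 5-aza table alone. Every gene listed in a table had at least 1 read there. The genes were grouped by subfamily, the number after Krtap, and by chromosome.

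Hair matrix keratinocytes, a proliferating epithelium in the follicle bulb whose progeny build the hair shaft and inner root sheath, were sorted from mouse skin at postnatal day 4.5. The groups were untreated Tet2/Tet3 double knockout (DKO) mice, untreated wild type (WT) mice, DKO mice given 5-aza and WT mice given 5-aza, with 2 libraries each. Tet2 and Tet3 oxidise 5-methylcytosine in DNA; their deletion is labelled Krt14-Cre, so it depends on a promoter of basal epidermal and follicle epithelium, while WT carries no further genotype label. At postnatal day 2.5 the 5-aza mice had a subcutaneous dose of 50 µg of this inhibitor of DNA methyltransferases. The labels do not say if the 2 libraries of a group represent different mice. In untreated mice Xist, which is transcribed from the inactive X chromosome of females, was 74.4 and 1.19 FPKM in DKO and 82.1 and 0.327 FPKM in WT. The Y-linked Ddx3y was 0.0755 and 2.9 FPKM in untreated DKO and 0.0155 and 3.5 FPKM in untreated WT, so replicates 1 and 2 of each untreated group came from animals of different sex. After 5-aza Xist was 4.6 and 3.65 FPKM in DKO and 16.9 and 23.1 FPKM in WT, and Ddx3y was 2.08 and 2.0 FPKM in DKO and 1.24 and 0.917 FPKM in WT. Xist was thus lower and Ddx3y higher in both DKO libraries than in both WT libraries after 5-aza. The part of sex in the results was not tested as such. In untreated mice replicate number matched sex in both groups, and a limma fit with a replicate block is given below. P-values measure the spread between libraries, which for the 5-aza groups may be technical.

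Keratin-associated proteins form the matrix between the keratin filaments of the hair shaft. They are small proteins cross-linked to hair keratins and to each other late in the differentiation of cortex and cuticle cells. They are divided by composition into high glycine-tyrosine, high sulphur and ultrahigh sulphur proteins, the last 2 classes being rich in cysteine. Their genes mostly lie in tandem clusters, and in mice the homeobox factor Hoxc13 is known to act on genes of this kind.

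Library totals were 19528602 to 22837436 reads in the untreated table and 39493929 to 58353167 reads in the 5-aza table, which also counts reads that were not aligned. Levels are therefore not on 1 scale across the tables, and 5-aza was not tested against untreated within a genotype. Tet3 was 6.92 and 7.31 FPKM in untreated DKO libraries, against 11.8 and 11.4 FPKM in untreated WT libraries. Tet2 was 2.72 and 2.55 FPKM in untreated DKO and 3.23 and 3.28 FPKM in untreated WT, so neither gene-level value showed a full loss. Markers of matrix keratinocytes such as Krt14, Msx2 and Lef1 were present in every library. So were those of fibroblasts (67.8 to 1350 summed FPKM over 6 genes) and melanocytes (20.4 to 139 summed FPKM over 7 genes). The 8 matrix markers summed to 916 and 1000 FPKM in untreated DKO and 533 and 686 FPKM in untreated WT. By difference in log2(FPKM + 1), 7 were higher in untreated DKO and 1, Mki67, was lower. Limma called 0 of them after adjustment, and the authors' deposited table lists 3 as higher: Krt14, Krt5 and Hoxc13. That table lists 0.793% of all its genes as higher. After 5-aza the sums were 687 and 696 FPKM in DKO and 508 and 487 FPKM in WT. The part of this difference in the keratin-associated protein result was not tested. In bulk RNA, fewer cells of a type and less RNA per cell cannot be told apart.

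Of the 53 genes, 52 were annotated as protein-coding and 49 had a single exon in GENCODE M21 (GRCm38). The remaining gene, Krtap19-9a, was annotated as a processed pseudogene. Deposited gene lengths were 165 to 2722 bases with a median of 917. They were within 1 base of the GENCODE M21 exon length in 48 of the 53 genes. The longest, Krtap5-3, was 2722 bases as deposited and 1652 bases in GENCODE M21. The chromosome 16 cluster spanned 960 kb (GRCm38, 16: 88610705 to 89571183) and the chromosome 11 cluster 444 kb (11: 99550130 to 99993994). The other genes lay on chromosomes 1, 7 and 10. Members resemble each other in sequence: 34 shared no 100-base stretch with another annotated gene, while in 10 genes over 10% of such stretches were shared, up to 62.8% in Krtap4-13. Among the named genes this concerns Krtap3-3 (36.7%) and Krtap6-1 (15.6%), whose values are uncertain to that extent.

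The promoters of 6 members from both clusters are shown as examples and not by rank. Krtap13-1, with a higher untreated DKO mean (13.1 FPKM) than Krtap16-3, Krtap1-5 and Krtap3-3, is not shown. Each line gives the 100 bases before the RefSeq start of the gene (GRCm38.p6), all on the minus strand, with the letters TATAAA in capitals.
Krtap8-1 (chr16:89487953-89488052): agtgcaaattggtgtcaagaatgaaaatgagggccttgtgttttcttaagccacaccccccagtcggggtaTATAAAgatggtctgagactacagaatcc
Krtap11-1 (chr16:89571184-89571283): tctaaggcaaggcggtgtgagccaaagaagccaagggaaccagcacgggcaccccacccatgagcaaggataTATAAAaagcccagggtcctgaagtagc
Krtap16-3 (chr16:88962874-88962973): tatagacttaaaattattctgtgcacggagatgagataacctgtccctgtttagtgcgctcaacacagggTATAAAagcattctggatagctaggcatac
Krtap22-2 (chr16:89010760-89010859): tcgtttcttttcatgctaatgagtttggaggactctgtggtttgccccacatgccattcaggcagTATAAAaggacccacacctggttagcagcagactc
Krtap3-3 (chr11:99550864-99550963): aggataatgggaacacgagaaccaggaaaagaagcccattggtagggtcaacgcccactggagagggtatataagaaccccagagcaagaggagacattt
Krtap1-5 (chr11:99581017-99581116): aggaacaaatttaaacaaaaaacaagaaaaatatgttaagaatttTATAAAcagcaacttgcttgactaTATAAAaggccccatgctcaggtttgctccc

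TATAAA, the core of the TATA box at which the general transcription machinery assembles, began 28, 29, 30 and 35 bases before the start of Krtap11-1, Krtap8-1, Krtap16-3 and Krtap22-2. Krtap1-5 held it at 2 places within the 100 bases. These exact letters were not in the window of Krtap3-3. RefSeq promoters of 300 bases, 250 before and 50 after the start, matched 46 members on their own chromosome. TATAAA on the gene's strand, within 40 to 16 bases before the start, was found in 28 of these 46 (60.9%), beside 1.99% of 32851 promoters of the same length. It was found there in 15 of 19 members (78.9%) on chromosome 11 and 9 of 20 (45.0%) on chromosome 16. The chromosome 16 promoters shown all hold it and so are not typical of their cluster. That of Krtap13-1 lacks it in this stretch. On either strand anywhere in the window it was found in 38 of 46 (82.6%), beside 13.6% of all promoters.

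The promoters held few CG dinucleotides, the sites of DNA methylation on which TET enzymes act. The median was 2 in the 300 bases with a range of 0 to 9, beside a median of 7 over all promoters, and 43 of 46 members (93.5%) had 5 or fewer, beside 43.6% of all promoters. CTTTGA, a core of the LEF/TCF motif, was found on either strand in 14 of 46, beside 5257 of all 32851 promoters. The Hox-type words TTTATNAA, TTTATNAG, TTTATNGA, TTTATNGG, TTAATNAA, TTAATNAG, TTAATNGA and TTAATNGG, some of which overlap TATAAA read from the other strand, were found in 23 of 46 (50.0%), beside 18.9% of all promoters. These matches describe the letters only. DNA methylation was not measured in the files used here.

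**Figure D1:**
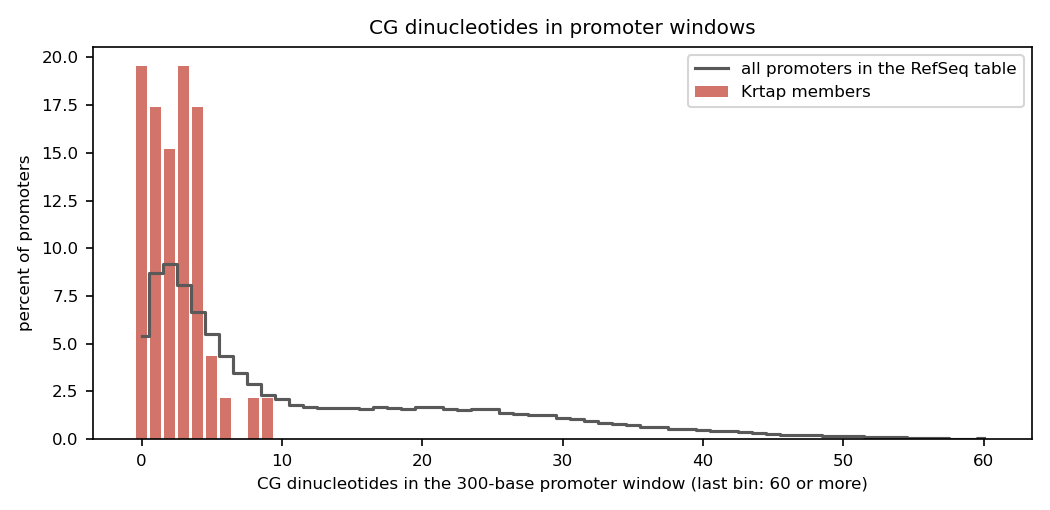
Percent of promoters (vertical axis) by the number of CG dinucleotides in the 300-base window (horizontal axis), for 46 keratin-associated protein genes (bars) and 32851 RefSeq promoters (line). Members lie between 0 and 9, while the line runs on to far higher numbers.

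The first comparison asks how DKO and WT matrix keratinocytes differ without treatment. Summed over the 52 listed genes, keratin-associated protein transcripts were 182 and 258 FPKM in untreated DKO libraries, against 21.6 and 35.5 FPKM in untreated WT libraries, so the groups did not overlap and the means differed 7.7-fold. The sums rest on 2624 and 3274 reads in DKO and 381 and 547 reads in WT, which is 0.0196% and 0.0277% of the reads in listed genes in DKO and 0.00299% and 0.00387% in WT. The DKO mean was above the WT mean in 42 of the 52 genes, where 53.0% of all listed genes were so, and below it in 10, where the share of all listed genes was 47.0%. Both DKO libraries were above both WT libraries in 29 genes (20.6% of all listed genes) and below both in 1, Krtap4-6 (15.7% of all listed genes), which had 0 reads in both DKO libraries and 2 reads in each WT library. The median difference over the 52 genes was 0.24 in log2(FPKM + 1), DKO minus WT, beside 0.0039 over all listed genes. It was above 1 in 16 members, where 0.398% of all listed genes reached that size.

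Members with too few reads were set aside (fewer than 15 reads in total, or fewer than 2 libraries reaching 10 reads when scaled to a library of median size), which left 22 of the 52. None of the 22 passed an adjusted p of 0.05 in limma on log2(FPKM + 1) over 17339 genes, where 0.00577% of genes, 1 gene, did. At an unadjusted p under 0.05 limma counted 21 of them higher in DKO, where 6.72% of all tested genes were so, and 0 lower, where 4.73% were. However, 15 of the 22 did not reach the read minimum in both WT libraries and passed through the DKO libraries in which they were high, so counts over the 22 are partly set by the filter. In the 7 that reached it in both WT libraries (Krtap1-5, Krtap7-1, Krtap8-1, Krtap10-10, Krtap11-1, Krtap12-1 and Krtap13-1), 6 were higher in DKO at an unadjusted p under 0.05, where 5.88% of the 16235 genes meeting the same condition were. Limma-voom on the reads recovered from FPKM and gene length called 12 of the 22 higher at an adjusted p under 0.05, where it called 0.577% of all genes, and 0 lower, where it called 0.271%; 5 of the 12 reached the read minimum in both WT libraries. In 1 limma fit over all 8 libraries, 9 members were called higher at an adjusted p under 0.05, where 0.524% of genes were. Of these, Krtap1-5 and Krtap3-3 reached the read minimum without the untreated DKO libraries. The others passed only with those libraries, in which they were high, so this count is partly set by the filter too. Krtap8-1 was not called in this fit (limma adjusted p = 0.0567). The authors' deposited table lists 14 members as higher in DKO at an adjusted p under 0.05, where it lists 0.793% of its genes, and 0 as lower, where the share is 0.486%. With a replicate block, which matched sex in untreated mice, limma called 3 members at an adjusted p under 0.05 and 13 of 17339 genes. The 3 members were Krtap8-1, Krtap11-1 and Krtap13-1, each higher in DKO. Deviations of same-numbered libraries correlated at 0.03 over all 17339 genes, and the planned fit without the block was kept. That correlation does not describe the members, whose sums were higher in replicate 2 of both groups. Permutation of 2 against 2 libraries cannot give a two-sided p under 0.333, so no exact test is given for single genes.

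Of the high glycine-tyrosine genes (subfamilies 6, 7, 8, 19, 21 and 22), 15 were listed. The DKO mean was higher in 15 (53.0% of all listed genes). Both DKO libraries lay above both WT libraries in 13 (20.6% of all listed genes). The 15 summed to 124 and 172 FPKM in DKO libraries, against 10.1 and 21.7 FPKM in WT libraries. Krtap8-1, the highest member, was 70.6 and 94.6 FPKM in DKO, against 6.5 and 12.0 FPKM in WT. Its DKO values were all above its WT values, with a fold of 8.92 and a log2 difference of 3.07 ± 0.31 (SE). It did not pass in limma (adjusted p = 0.105) and passed with limma-voom (adjusted p = 0.00393). In the authors' deposited table its log2 difference was 3.14 (adjusted p = 9.6e-36). Krtap8-1 alone made up 37.5% of the summed level in DKO.

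Krtap7-1, the single gene of its subfamily, was 16.8 and 22.8 FPKM in DKO, against 1.41 and 4.25 FPKM in WT, a fold of 7.0 (log2 difference 2.53 ± 0.40, limma adjusted p = 0.172). Krtap22-2 was 14.1 and 18.1 FPKM in DKO, against 0.481 and 2.53 FPKM in WT, a fold of 10.7 (log2 difference 2.89 ± 0.43, limma adjusted p = 0.162). In both genes the WT libraries differed from each other several-fold but stayed below both DKO libraries. In DKO the values of Krtap7-1 and Krtap22-2 overlapped, so their order by level was not set.

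Subfamily 19 had 7 listed genes, all higher by mean in DKO (53.0% of all listed genes). Both DKO libraries were above both WT libraries in 5 (20.6% of all listed genes). Krtap19-3 was 4.03 and 5.75 FPKM in DKO, against 0.334 FPKM, or 4 reads, in each WT library. Its fold of 14.6 thus rests on few WT reads (log2 difference 2.13 ± 0.16, limma adjusted p = 0.0831). Krtap19-9b was 2.93 and 6.33 FPKM in DKO, against 0.285 and 0.286 FPKM in WT, where each WT value is 3 reads. Its fold of 16.2 rests on few WT reads too (log2 difference 2.06 ± 0.30, limma adjusted p = 0.162). Its neighbour Krtap19-9a, annotated as a processed pseudogene, had the shortest length of the family at 165 bases. Krtap19-9a had 14 and 18 reads in DKO and 0 reads in both WT libraries. That is 3.82 and 5.59 FPKM in DKO, at least 11.8-fold higher than the WT floor of 3 reads over the group (log2 difference 2.49 ± 0.17, limma adjusted p = 0.0746). Krtap19-1 was 0.82 and 1.35 FPKM in DKO and 0 and 0.0888 FPKM in WT, and did not pass the filter.

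In subfamily 6, all 4 listed genes had both DKO libraries above both WT libraries (20.6% of all listed genes). Krtap6-5 was 3.94 and 5.78 FPKM in DKO, against 0.221 and 0.0739 FPKM in WT, a fold of 32.9 that rests on few WT reads (log2 difference 2.34 ± 0.18, limma adjusted p = 0.0831). Krtap6-1 was 2.81 and 5.09 FPKM in DKO, against 0.222 and 0.74 FPKM in WT (fold 8.22, limma adjusted p = 0.18). Krtap21-1, alone in its subfamily, was 1.59 and 3.07 FPKM in DKO and 0.0674 and 0.0675 FPKM in WT, where each WT value is 1 read (limma adjusted p = 0.151). The authors' deposited table lists 9 of the 15 high glycine-tyrosine genes as higher in DKO and 0 as lower. Of all its genes, it lists 0.793% as higher and 0.486% as lower.

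Of the high sulphur genes (subfamilies 1, 2, 3, 10, 11, 12, 13, 14, 24, 26 and 27), 16 were listed. Of these, 15 had a higher DKO mean (53.0% of all listed genes). The 16 summed to 48.7 and 72.9 FPKM in DKO libraries, against 8.35 and 12.2 FPKM in WT libraries. Krtap11-1 was 23.4 and 33.6 FPKM in DKO, against 4.04 and 5.06 FPKM in WT, a fold of 6.26 (log2 difference 2.39 ± 0.20, limma adjusted p = 0.0831). Krtap13-1 was 9.56 and 16.5 FPKM in DKO, against 0.76 and 1.35 FPKM in WT, a fold of 12.4 (log2 difference 2.74 ± 0.28, limma adjusted p = 0.105). Both genes lie on chromosome 16, and both passed with limma-voom (adjusted p = 0.00574 for Krtap11-1 and 0.0225 for Krtap13-1).

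The chromosome 11 genes of the high sulphur class had lower levels. Krtap1-5 was 4.5 and 5.81 FPKM in DKO, against 0.674 and 0.928 FPKM in WT, a fold of 6.44 (log2 difference 1.77 ± 0.15, limma adjusted p = 0.0831). Krtap3-3, at the edge of the cluster, was 3.8 and 3.97 FPKM in DKO, against 0.477 and 0.597 FPKM in WT, a fold of 7.24. Its difference of 1.67 ± 0.09 had the smallest p of the family (limma adjusted p = 0.0606), since its libraries agreed closely within each group. Krtap3-1 averaged 2.52 ± 1.24 FPKM in DKO and 0.619 ± 0.669 FPKM in WT (SD, n = 2 libraries each, limma adjusted p = 0.383).

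Among the remaining high sulphur genes, Krtap14 averaged 1.52 ± 0.36 FPKM in DKO and 0.329 ± 0.349 FPKM in WT (limma adjusted p = 0.25), and Krtap27-1 was 0.419 and 2.38 FPKM in DKO and 0 and 0.136 FPKM in WT, below the filter. Krtap12-1 on chromosome 10 had the highest WT level among these low genes and a smaller difference, at 1.86 and 2.5 FPKM in DKO and 1.0 and 1.41 FPKM in WT (fold 1.81, log2 difference 0.53 ± 0.15, limma adjusted p = 0.334). Its neighbour in the same chromosomal group, Krtap10-10, was 0.483 and 0.589 FPKM in DKO and 0.671 and 0.37 FPKM in WT, with overlapping groups. Krtap16-3, given no class here, was 6.3 and 10.1 FPKM in DKO, against 0.292 and 0.439 FPKM in WT. Its fold of 22.4 rests on 4 and 6 WT reads (log2 difference 2.72 ± 0.22, limma adjusted p = 0.0831).

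The ultrahigh sulphur genes (subfamilies 4, 5, 9 and 17), cysteine-rich proteins, were near the floor: 16 were listed and 1 passed the filter. Their sum was 2.58 and 2.97 FPKM in DKO libraries, against 2.22 and 1.12 FPKM in WT libraries. The gene that passed, Krtap9-3, was 1.25 and 1.89 FPKM in DKO, against 0.231 and 0.521 FPKM in WT (fold 4.17, limma adjusted p = 0.218). The 8 listed Krtap4 genes summed to 0.719 and 0.619 FPKM in DKO and 0.935 and 0.442 FPKM in WT, with 4 higher and 4 lower by mean. These rest on 10 to 21 reads per library, so no difference was detectable at this depth. Krtap17-1 had 7 and 4 reads in DKO and 14 and 2 reads in WT, and the 5 Krtap5 genes on chromosome 7 together had 2 and 4 reads in DKO and 10 and 0 reads in WT.

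**Figure D2:**
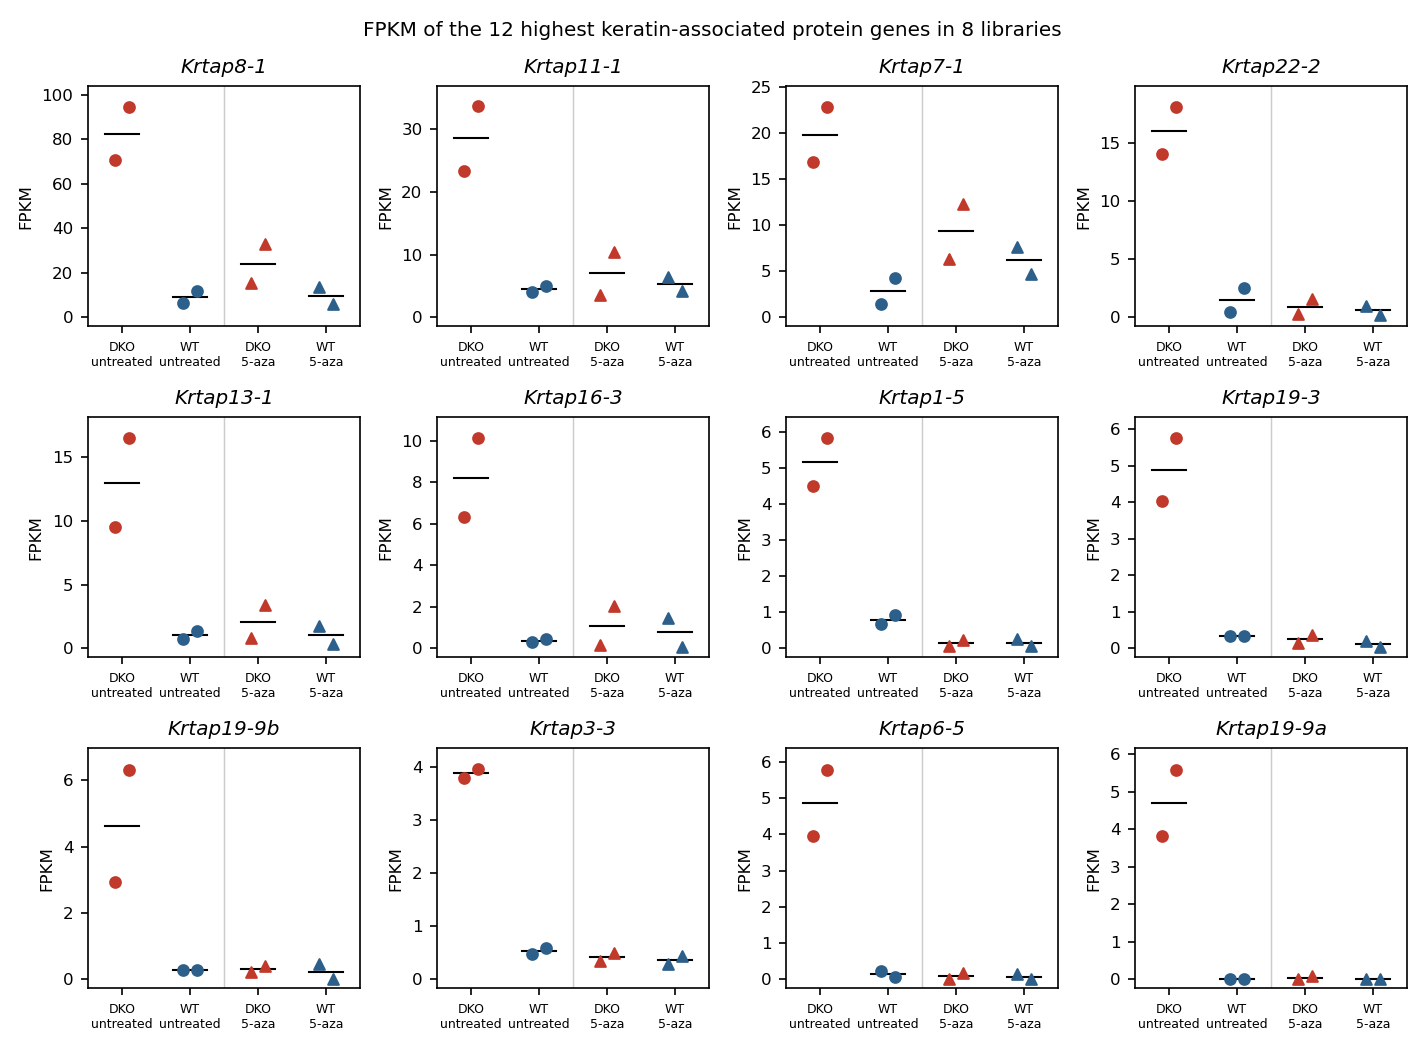
FPKM (vertical axis, own scale in each panel) of the 12 keratin-associated protein genes with the highest mean over the groups, by group. Points are single libraries and lines group means; levels of untreated (circles) and 5-aza (triangles) libraries are not on 1 scale. In untreated mice the points of both DKO libraries lie above those of both WT libraries in every panel, while after 5-aza the groups overlap in most panels.

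By position, all 22 listed genes of the chromosome 16 cluster had a higher DKO mean, where 53.0% of all listed genes did. In 19 both DKO libraries lay above both WT libraries, where 20.6% of all listed genes were so. The cluster summed to 165 and 237 FPKM in DKO, against 15.5 and 29.5 FPKM in WT. Of the 20 listed genes of the chromosome 11 cluster, 14 had a higher DKO mean and 6 a lower one. The shares of all listed genes were 53.0% and 47.0%. The chromosome 11 sum was 13.9 and 17.9 FPKM in DKO, against 3.71 and 4.08 FPKM in WT. Along chromosome 11 the 3 Krtap3 genes, Krtap1-5 and Krtap9-3 had the larger differences, and the run of Krtap4 genes beside them lay near 0. However, 0 of the 8 Krtap4 genes passed the filter. At their few reads the added constant of 1 draws differences towards 0, so no lack of response is shown. The authors' deposited table lists 12 genes of the chromosome 16 cluster and 2 of the chromosome 11 cluster, Krtap3-3 and Krtap1-5, as higher in DKO. It lists 0.793% of all its genes as higher. Whether the clusters differ in their response was not tested.

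**Figure D3:**
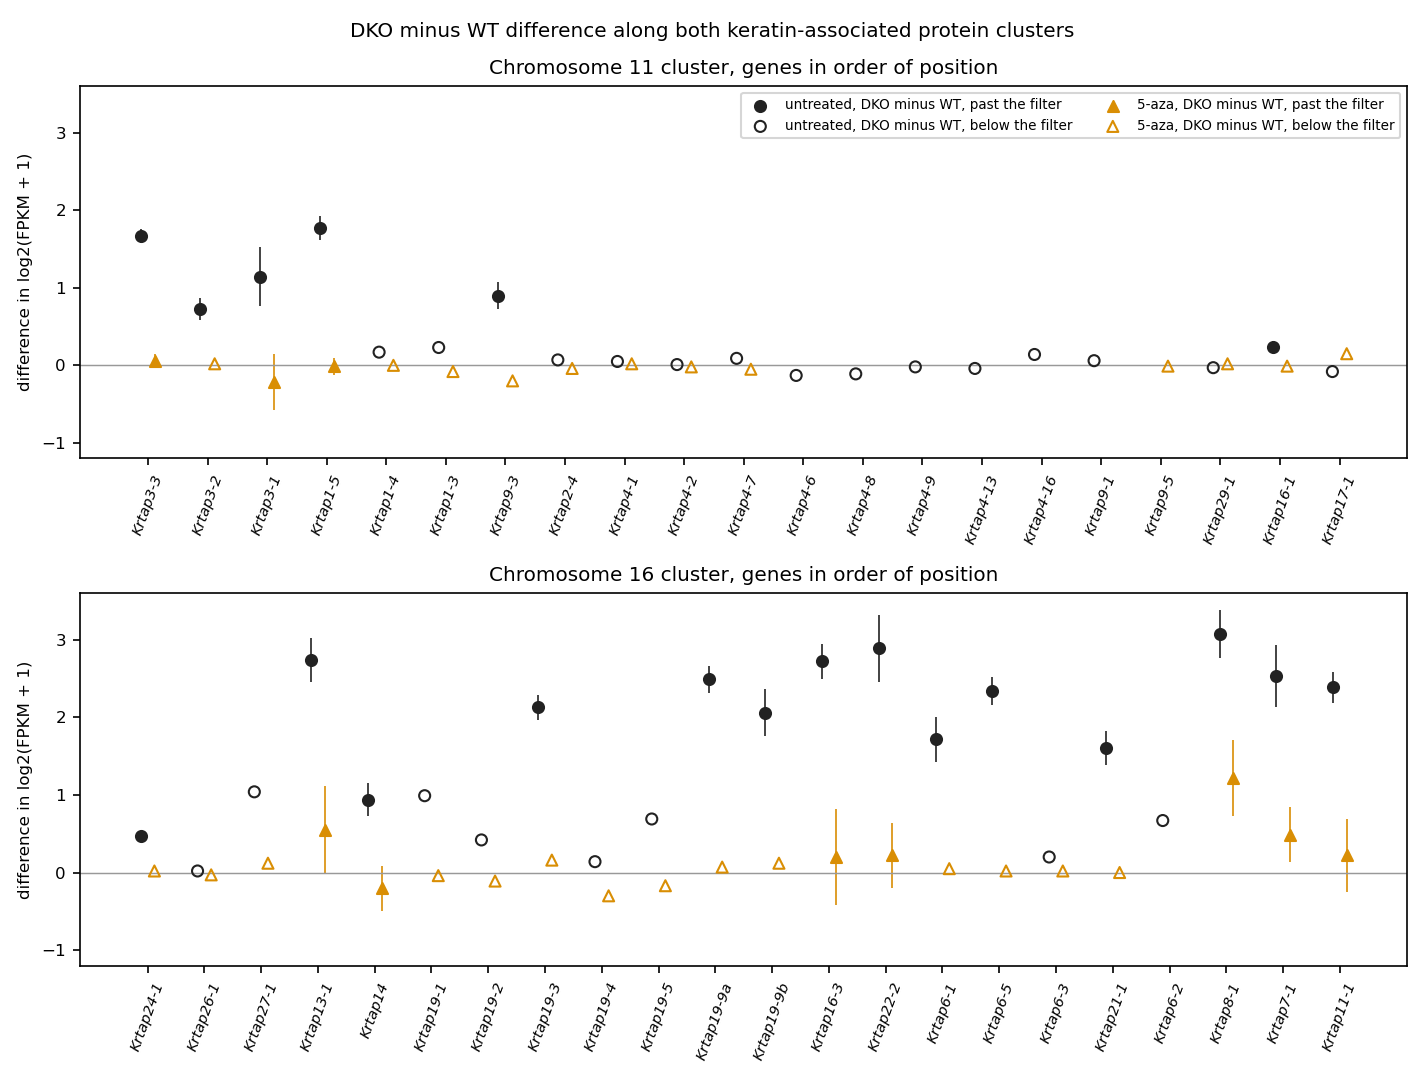
Difference in log2(FPKM + 1), DKO minus WT (vertical axis), for each gene in order along the chromosome 11 and chromosome 16 clusters (horizontal axis), untreated (circles) and after 5-aza (triangles). Filled points passed the filter on low reads and carry the SE from limma. Untreated points reach 3.07 at Krtap8-1, and points after 5-aza lie mostly near 0. Open points had few reads, so the added constant of 1 draws their differences towards 0.

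The second comparison asks how DKO and WT differed after 5-aza, when fewer members were measurable. Of 41 listed genes 12 passed the filter. The DKO mean was higher in 21 (58.1% of all listed genes) and lower in 20 (41.9% of all listed genes). Both DKO libraries were above both WT libraries in 5 genes (21.7% of all listed genes) and below both in 2 (11.2% of all listed genes). The median difference over the 41 genes was 0.01 in log2(FPKM + 1), beside 0.0077 over all listed genes, and it was above 1 in 1 member, Krtap8-1, where 0.0752% of all listed genes reached that size.

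Limma called 0 members at an adjusted p under 0.05 (0.0% of all tested genes), as did limma-voom (0% of all tested genes). At an unadjusted p under 0.05 limma counted 0 members higher, where 6.64% of tested genes were so, and 0 lower, where 2.3% were, and limma-voom counted 1 member. The authors' deposited table lists 0 members as higher, where 0.547% of its genes are, and 0 as lower, where 0.161% are.

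Summed keratin-associated protein transcripts were 29.5 and 67.6 FPKM in DKO libraries after 5-aza, against 39.0 and 18.2 FPKM in WT libraries. WT replicate 1 was above DKO replicate 1, so the groups overlapped. Krtap8-1 was 15.6 and 32.9 FPKM in DKO, against 13.6 and 6.13 FPKM in WT, a fold of 2.46 that did not pass (log2 difference 1.22 ± 0.49, limma adjusted p = 0.583). It was the 1 member among the 12 highest whose groups did not overlap after 5-aza. Krtap11-1 was 3.65 and 10.4 FPKM in DKO and 6.44 and 4.25 FPKM in WT (log2 difference 0.22 ± 0.47, limma adjusted p = 0.929). Krtap7-1 was 6.37 and 12.3 FPKM in DKO and 7.62 and 4.75 FPKM in WT (log2 difference 0.49 ± 0.35, limma adjusted p = 0.752). In Krtap11-1 and Krtap7-1 the groups overlapped.

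The same order of libraries, DKO replicate 2 and WT replicate 1 above DKO replicate 1 and WT replicate 2, recurred in lower members. Krtap13-1 was 0.811 and 3.39 FPKM in DKO and 1.75 and 0.35 FPKM in WT. Krtap16-3 was 0.169 and 2.03 FPKM in DKO and 1.48 and 0.0728 FPKM in WT. Krtap22-2 was 0.278 and 1.6 FPKM in DKO and 0.99 and 0.24 FPKM in WT. Markers of melanocytes, pigment cells that share the hair bulb with the matrix, had this order too, at 27.6 and 139 summed FPKM in DKO and 96.6 and 20.4 in WT over 7 genes, as did those of dermal papilla, at 15.9 and 35.1 in DKO and 51.8 and 22.5 in WT over 10 genes. Their part in the result was not tested.

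Some other members with several FPKM in untreated DKO stayed at 0.49 FPKM or lower in every 5-aza library, on the separate scale of that table. Krtap1-5 was 0.073 and 0.231 FPKM in DKO and 0.265 and 0.063 FPKM in WT. Krtap3-3 was 0.344 and 0.49 FPKM in DKO and 0.288 and 0.445 FPKM in WT. Krtap19-3 was 0.145 and 0.359 FPKM in DKO and 0.202 and 0.0416 FPKM in WT, and Krtap19-9b was 0.22 and 0.409 FPKM in DKO and 0.46 and 0 FPKM in WT. Krtap6-5 was 0 and 0.173 FPKM in DKO and 0.143 and 0 FPKM in WT, and Krtap19-9a had 1 read in 1 DKO library and 0 reads in the other libraries. Group means of Krtap12-1, Krtap14, Krtap3-1 and Krtap9-3 were lower in DKO than in WT after 5-aza, with limma adjusted p of 0.772, 0.882 and 0.903 for the first 3 and Krtap9-3 below the filter.

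**Figure D4:**
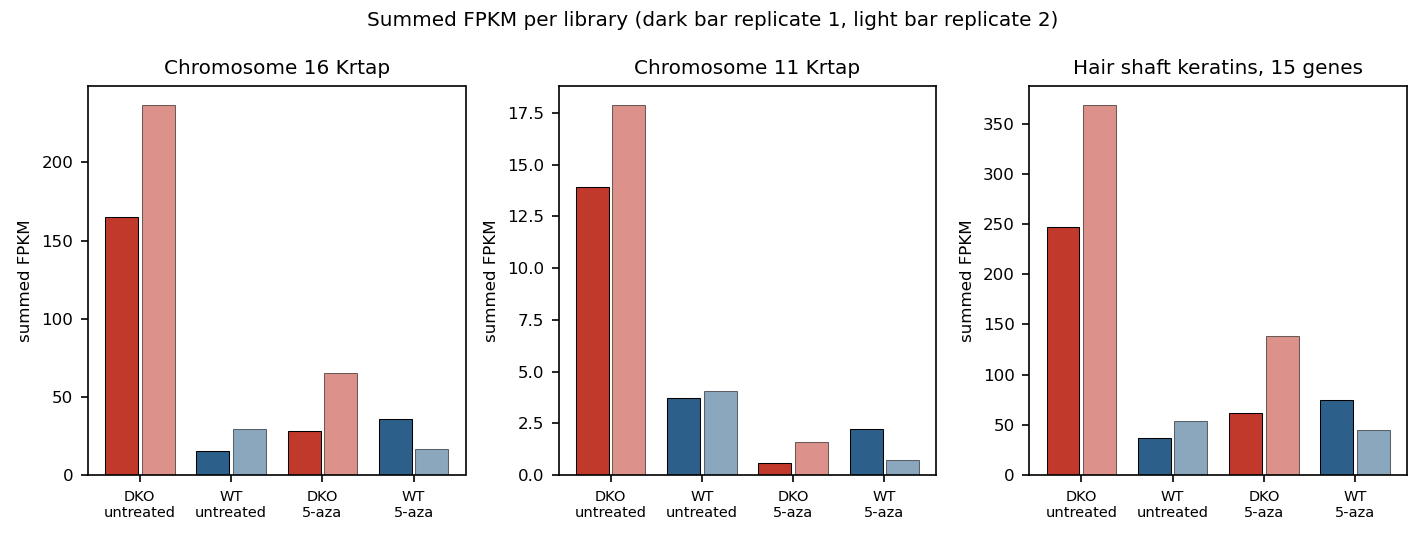
Summed FPKM per library (vertical axis, own scale in each panel) of the chromosome 16 and chromosome 11 keratin-associated protein genes and of 15 hair shaft keratins, by group; dark bars are replicate 1 and light bars replicate 2. Untreated DKO bars stand above untreated WT bars, while after 5-aza DKO replicate 2 and WT replicate 1 are the higher bars; the tables are not on 1 scale.

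The third comparison asks whether the difference between DKO and WT was itself different after 5-aza than without it. In 40 genes listed in both tables the difference was larger untreated in 35, and 18 had a higher DKO mean of log2 values in both. In the interaction over 8 libraries, the 5-aza difference minus the untreated difference, 23 members were tested. All 23 were negative, where 44.4% of the 18505 genes tested were, with a median of -1.68 beside 0.0159 over all genes. At an unadjusted p under 0.05, 21 were negative (3.04% of genes) and 0 positive (3.05% of genes). The untreated values enter this result again, so it is not independent of the first comparison. In 11 of the 23 the read minimum was reached only with the untreated DKO libraries, in which they were high, so their negative sign is partly set by the filter. The other 12 were negative too, 10 of them at an unadjusted p under 0.05, where 2.65% of the 17879 genes meeting the same condition were.

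Limma called 2 members at an adjusted p under 0.05, where it called 0.027% of genes. These were Krtap19-9a at -2.42 ± 0.20 and Krtap3-3 at -1.62 ± 0.13, each with an adjusted p of 0.0436. Krtap19-9a passed the filter through the untreated DKO libraries alone. Both calls ended in limma-voom, without the filter and without any 1 library. For Krtap8-1 the interaction was -1.85 ± 0.68 (limma adjusted p = 0.791), for Krtap11-1 -2.17 ± 0.60 (0.607) and for Krtap1-5 -1.78 ± 0.21 (0.121). In genes of low FPKM the added constant of 1 keeps a difference in scale between the tables from cancelling.

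The other structural genes of the hair shaft are the hair keratins, whose filaments these proteins bind. Of 9 type I hair keratins 8 were tested in untreated mice and all 8 had a higher DKO value, with 0 past an adjusted p of 0.05 in limma, 7 at an unadjusted p under 0.05 and 6 called in the authors' deposited table. Of 7 type II hair keratins 6 were listed and tested, all 6 higher, with 0 past an adjusted p of 0.05 in limma, 5 at an unadjusted p under 0.05 and 4 called by the authors. Of all tested genes, 6.72% were higher in DKO at an unadjusted p under 0.05 in limma. The authors' deposited table lists 0.793% of its genes as higher. Together the 15 listed hair keratins summed to 247 and 369 FPKM in DKO libraries, against 37.2 and 53.5 FPKM in WT libraries. Keratins and keratin-associated proteins were thus both higher in DKO. Krt33a was 36.4 and 52.1 FPKM in DKO, against 3.71 and 6.52 FPKM in WT, and Krt31 was 36.6 and 56.4 FPKM in DKO, against 4.67 and 6.64 FPKM in WT. After 5-aza the 15 genes summed to 61.3 and 138 FPKM in DKO and 74.9 and 44.5 FPKM in WT, with overlapping groups.

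Of 19 regulators of the shaft lineage all were tested in untreated mice, 14 higher and 5 lower in DKO, with 0 past an adjusted p of 0.05 in limma. The authors' deposited table lists 4 of them as higher and 1 as lower, where it lists 0.793% and 0.486% of its genes. Hoxc13 was 24.4 and 30.7 FPKM in DKO, against 9.49 and 15.8 FPKM in WT (log2 difference 1.10 ± 0.26, limma adjusted p = 0.268). Foxn1, the factor lost in nude mice, was 7.08 and 8.1 FPKM in DKO, against 3.72 and 3.31 FPKM in WT (limma adjusted p = 0.117). Vdr, the vitamin D receptor, was 4.85 and 6.34 FPKM in DKO, against 8.07 and 11.4 FPKM in WT (limma adjusted p = 0.327). After 5-aza Hoxc13 averaged 22.6 ± 0.774 FPKM in DKO and 12.3 ± 0.963 FPKM in WT (SD, n = 2 libraries each), and the groups did not overlap although those of most keratin-associated protein genes did. The authors' deposited table calls Hoxc13 higher in DKO after 5-aza (adjusted p = 2.18e-07); limma did not (adjusted p = 0.286).

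The inner root sheath, the other structure built by matrix progeny, had 9 marker genes, 5 higher and 4 lower in untreated DKO. They summed to 325 and 472 FPKM in DKO and 306 and 251 FPKM in WT. Krt28, a keratin of this sheath, was 1.98 and 2.85 FPKM in DKO, against 70.4 and 70.7 FPKM in WT, and was the 1 gene called by limma in untreated mice (adjusted p = 0.0235). Krt25 averaged 29.2 ± 9.71 FPKM in DKO and 64.0 ± 1.46 FPKM in WT (SD, n = 2 libraries each, limma adjusted p = 0.241). Krt27 averaged 71.8 ± 20.1 FPKM in DKO and 19.1 ± 6.66 FPKM in WT (limma adjusted p = 0.179), and Tchh, the matrix protein trichohyalin, 26.2 ± 11.6 FPKM in DKO and 5.85 ± 1.33 FPKM in WT (limma adjusted p = 0.186). The keratins of the sheath thus differed in direction among themselves, while the 14 hair keratins tested were all higher by value in DKO.

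Markers of other cell types in the untreated libraries had the following levels. Those of dermal papilla, the mesenchymal core of the bulb, summed to 125 and 124 FPKM in DKO and 199 and 167 FPKM in WT over 10 genes, with 9 of 10 lower. Those of immune cells summed to 21.8 and 26.8 FPKM in DKO and 11.2 and 13.9 FPKM in WT over 8 genes, with 7 of 8 higher and Ptprc, a defining marker, at 0.0586 FPKM or less. Melanocyte markers summed to 35.4 and 38.3 FPKM in DKO and 28.8 and 29.1 FPKM in WT over 7 genes. Fibroblast markers summed to 1350 and 1130 FPKM in DKO and 465 and 1250 FPKM in WT over 6 genes. Endothelial markers summed to 2.42 and 1.82 FPKM in DKO and 1.22 and 1.08 FPKM in WT over 4 genes, those of the suprabasal epidermis to 158 and 279 FPKM in DKO and 293 and 108 FPKM in WT over 5 genes, and erythroid genes to 16.2 and 27.5 FPKM in DKO and 11.4 and 89.7 FPKM in WT over 5 genes. Their part in the keratin-associated protein result was not tested.

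Among 8949 other genes with a mean of at least 1 FPKM in both tables, those most like the summed keratin-associated protein level over the 8 libraries, by Pearson correlation of log2(FPKM + 1), were Krt86 (0.998), 4930553J12Rik (0.995), Krt33a (0.995), Gprc5d (0.993), Krt81 (0.987) and Krt87 (0.986). For Krtap8-1 alone they were Krt86 and Krt87 (0.985 each), 4930553J12Rik (0.984), Mid1ip1 and Krt31 (0.976 each) and Gprc5d (0.971). Among the other members with a mean of at least 1 FPKM in a group, the correlation with Krtap8-1 ran between 0.688 for Krtap12-1 and 0.968 for Krtap13-1. Each of these members reached that mean in untreated DKO, so the high values are partly set by this choice. For lower members no correlation was computed. The points share the 2 tables and their scales, so these values describe these libraries only.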

How the data were processed

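RNA sequencing values of 8 libraries in 4 groups were used. Tools named in the submitters' processing notes are STAR, HTSeq, DESeq2 and Trim Galore, with mm10 and GRCm38 as builds; versions and the strand setting of counting are not given in the sources used here. The labels name 2 library kits and do not tie them to groups. The authors deposited FPKM per library; values times length are whole multiples of 1 read within 9.9e-10 reads, from which reads were recovered. The deposited log2 fold changes and their errors are, per the file headers, of WT over DKO, so their sign was turned here; the deposited p-values are the authors' adjusted ones. The deposited mean of normalised reads is a signal value, and the deposited test statistic is a score; neither is reported. Reads that did not align to 1 place are a separate row in the authors' tables and entered no gene.

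The difference in log2(FPKM + 1) was tested with limma 3.58.1 (R 4.3.3), using a mean-variance trend and two-sided p-values adjusted by Benjamini-Hochberg over all genes past the filter. A count model had been planned for count columns and was not used because the columns hold FPKM. The fit was tested on simulated data. Alternatives were another pseudocount, other filters and scalings, no trend, voom, 1 fit over all libraries, a replicate block and leaving out each library. Members with a mean of at least 1 FPKM in a group are named, the 12 highest with every library value; other members named are examples or extremes of their group. The members and gene lists were chosen with earlier results of these data known. Planned classes by protein composition could not be made here, so classes follow the subfamily numbers as commonly assigned. The floor of 3 reads covers counting error only.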

Additional observations from a re-analysis of the deposited data

Results flagged for a closer look

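Limma over 18505 genes called 2 members for the interaction, the 5-aza difference between DKO and WT minus the untreated one. Neither call held with limma-voom, a pseudocount of 0.1, no filter, no variance trend or the replicate block. The 2 tables are not on 1 scale. Krtap19-9a passed the filter on low reads through the untreated DKO libraries alone, in which it was high. Krtap19-9a, annotated as a processed pseudogene, had an interaction of -2.42 on the log2(FPKM + 1) scale (limma adjusted p = 0.0436). It had 14 and 18 reads in untreated DKO libraries and 0 in untreated WT libraries. After 5-aza it had 0 and 1 reads in DKO libraries and 0 in WT libraries. Krtap3-3 had an interaction of -1.62 (adjusted p = 0.0436), with 3.88 ± 0.122 FPKM in DKO and 0.537 ± 0.0852 FPKM in WT untreated, and 0.417 ± 0.103 FPKM in DKO and 0.367 ± 0.111 FPKM in WT after 5-aza (SD, n = 2 libraries each). Krtap3-3 shares 36.7% of its 100-base stretches with another gene.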

How the results depend on the processing

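In untreated mice no named member changed direction. Members called (0) and all genes called (1) became 3 and 8 with a pseudocount of 0.1, 9 and 129 in a fit of all 8 libraries, 12 and 147 with voom, and 3 and 13 with the replicate block; no filter and no trend each called 0 genes. The median difference of members past the filter (1.75) was 2.80, 0.24, 2.23 and 3.02 with a pseudocount of 0.1, no filter, a mean of at least 1 FPKM and voom. Without each replicate in turn, 7 to 20 members had an unadjusted p under 0.05 (9 without DKO replicate 1, 7 without DKO replicate 2), 0 to 1 genes were called and the median was 1.64 to 2.28. A group then has 1 library, assumed to vary like the others, and the filter admits fewer members, 10 without either DKO library. After 5-aza, 1 member had an unadjusted p under 0.05 with no filter, with voom and in the fit of all 8 libraries, the last of which called 1 gene. Krtap1-5 turned to 0.08 with voom. Leaving out replicates gave 0 to 3 members at an unadjusted p under 0.05 and a median of -0.08 to 0.43, negative without DKO replicate 2 (-0.06) and without WT replicate 2 (-0.08). Krtap8-1 ran between 0.70 and 1.73 and Krtap7-1 between 0.07 (without DKO replicate 2) and 0.91. Members that turned ran between the following values: Krtap11-1 -0.43 to 0.87 (-0.43 without DKO replicate 2, -0.03 without WT replicate 2), Krtap13-1 -0.09 to 1.19, Krtap16-3 -0.40 to 0.89, Krtap22-2 -0.13 to 0.73, Krtap3-3 -0.03 to 0.14 (-0.02 without DKO replicate 2), Krtap1-5 -0.14 to 0.09, Krtap3-1 -0.69 to 0.02 and Krtap14 -0.58 to 0.17. In the interaction, the 2 members and 5 genes called became 0 and 1 with a pseudocount of 0.1, 0 and 2 with no filter, 0 and 1 with a mean of at least 1 FPKM, 0 and 2 with scaling to listed genes, 0 and 2 with no trend, 0 and 1 with voom and 0 and 0 with the replicate block. The median (-1.68) was -2.55, -0.78 and -2.57 with a pseudocount of 0.1, no filter and voom. Leaving out replicates called 0 members, 0 to 8 genes and 6 to 22 members at an unadjusted p under 0.05. The cause of these changes was not tested. The labels tie replicate numbers to no shared litter or day. Same-numbered libraries were of the same sex by Xist and Ddx3y in untreated mice. Their deviations from the group means correlated at 0.03 over genes untreated and at -0.59 after 5-aza. These correlations are over all genes past the filter and do not describe the members. The planned fit without the replicate block was kept. The 3 members that limma with the block called in untreated mice were Krtap8-1 (adjusted p = 0.0384), Krtap11-1 (0.0384) and Krtap13-1 (0.0334). A crossed pairing after 5-aza, chosen after seeing the data, called 1 member and 91 genes, with 4 members at an unadjusted p under 0.05. At 381 to 3274 member reads per untreated library, genes of a few reads cannot show a difference.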

Other observations

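Inside the chromosome 16 cluster lie 4 genes that passed the filter and are not named Krtap, each annotated as protein-coding. 4930553J12Rik was 11.6 and 17.3 FPKM in untreated DKO libraries, against 0.999 and 1.75 FPKM in untreated WT libraries (limma adjusted p = 0.0831). Gm10229 was 10.7 and 18.4 FPKM in DKO, against 0.312 and 1.72 FPKM in WT (limma adjusted p = 0.153), and Gm10228 was 3.28 and 6.81 FPKM in DKO, against 0.239 and 0.799 FPKM in WT (limma adjusted p = 0.19). 1110025L11Rik was 1.83 and 4.17 FPKM in DKO and 0 and 0.149 FPKM in WT (limma adjusted p = 0.175). The genes flanking the cluster differed less. Before it, Bach1 averaged 4.58 FPKM in DKO and 4.46 FPKM in WT, and Cldn8 6.32 FPKM in DKO and 3.99 FPKM in WT. Grik1, at a low level, averaged 0.0352 FPKM in DKO and 0.00909 FPKM in WT, a fold of 3.88. After the cluster, Tiam1 averaged 4.12 FPKM in DKO and 2.78 FPKM in WT, and Sod1 5.96 FPKM in DKO and 8.25 FPKM in WT. Scaf4 averaged 3.71 FPKM in DKO and 4.05 FPKM in WT.

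Beside the chromosome 11 cluster, the hair keratins on its far side were higher by mean in DKO, Krt33a at 44.3 FPKM in DKO and 5.12 FPKM in WT, Krt33b at 30.6 FPKM in DKO and 3.33 FPKM in WT and Krt34 at 16.4 FPKM in DKO and 1.41 FPKM in WT, none past an adjusted p of 0.05 in limma. On the other side, Krt10, a keratin of the epidermis, averaged 132 FPKM in DKO and 116 FPKM in WT. Krt23 averaged 6.88 FPKM in DKO and 10.6 FPKM in WT. Krt39, a hair keratin on that side, was higher by mean in DKO at a low level. It averaged 0.249 FPKM in DKO and 0.129 FPKM in WT (limma adjusted p = 0.374). Gm11560, annotated as a processed pseudogene within the cluster, averaged 1.06 FPKM in DKO and 1.27 FPKM in WT. Neighbours were chosen by position among genes past the filter, and no test compared them with the clusters.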
